A study of Mus musculus with 11 samples.

Results

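Macrophages and monocytes were followed here through 10 of their genes, C1qa, C1qb, C1qc, Mrc1, Adgre1, Cd68, Lyz2, Cx3cr1, Ccr2 and Csf2rb. They were chosen by name as markers of mononuclear phagocytes, and all 10 had values, among 19170 genes with values and 55414 listed. The measurements were mRNA sequencing of gingival epithelium from langerin-DTR mice, in which the receptor for diphtheria toxin (DT) is driven by the langerin gene, so that DT kills langerin-expressing cells. Every mouse carried this allele. The control group (n = 5) received PBS and the DT group (n = 6) received DT, each injected at 17, 24 and 31 days of age, and tissue was taken in adulthood. Langerin marks Langerhans cells, the antigen-presenting cells of stratified epithelium, but also some dendritic cells, and Langerhans cells can return after the toxin. At collection, the langerin gene Cd207 averaged 23.9 ± 13.4 normalized counts in PBS mice (SD, n = 5) and 18.4 ± 1.99 in DT mice (SD, n = 6), with a log2 fold change of -0.19 (limma, adjusted p = 0.853), and the groups overlapped.

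Monocytes leave the blood through chemokine receptors and can settle in tissue as macrophages, which engulf microbes and dying cells. Resident macrophages are a main source of C1q, a protein of 3 kinds of chain encoded by C1qa, C1qb and C1qc, which starts the classical complement pathway and marks debris for uptake. Mrc1 (the mannose receptor CD206), Adgre1 (the F4/80 antigen), Cd68 (a lysosomal membrane protein) and Lyz2 (lysozyme) are widely used macrophage markers. Ccr2 draws classical monocytes out of the bone marrow, Cx3cr1 binds fractalkine, and Csf2rb encodes the beta chain shared by the receptors for GM-CSF, IL-3 and IL-5. Few of these genes belong to one cell type, since Langerhans cells also carry F4/80 and neutrophils also make lysozyme. In bulk RNA, fewer cells of a type and less RNA per cell cannot be told apart.

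C1qa, C1qc and C1qb lie side by side on the minus strand of chromosome 4, at 136895917 to 136898803, 136889804 to 136893065 and 136880129 to 136886187 (GENCODE positions on GRCm38). C1qb and C1qc were the members whose values followed each other most closely from mouse to mouse, and bases before their starts are shown for that reason. They were taken from RefSeq on GRCm38.p6, both on the minus strand and read 5′ to 3′. For C1qb the 250 bases before the RefSeq start are given (chr4:136886201-136886450). The RefSeq start of C1qc, 136892914, lies inside the GENCODE gene, so only the 99 bases upstream of the GENCODE start are given (chr4:136893066-136893164). Capitals mark matches on either strand to GAGGAA or AGGAAGT, letter strings that hold the GGAA core read by PU.1, a myeloid transcription factor of the ETS family.
C1qb: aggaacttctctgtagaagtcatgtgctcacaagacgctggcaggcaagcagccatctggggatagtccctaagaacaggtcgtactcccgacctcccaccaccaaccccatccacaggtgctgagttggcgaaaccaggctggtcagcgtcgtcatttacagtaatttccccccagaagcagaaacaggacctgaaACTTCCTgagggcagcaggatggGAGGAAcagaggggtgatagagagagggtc
C1qc: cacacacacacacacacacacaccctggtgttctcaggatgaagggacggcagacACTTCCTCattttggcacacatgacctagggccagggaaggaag
Both strings, which can overlap each other, were chosen after the values were seen. Over windows of 300 bases, from 250 before to 50 after the start, GAGGAA was found in 28.3% of 32851 promoters and in 4 of the 7 member promoters at hand (C1qb, C1qc, Cd68 and Mrc1). AGGAAGT was found in 9.35% of all windows and in 4 of the 7 (C1qb, C1qc, Lyz2 and Mrc1). The promoters of C1qa, Adgre1 and Csf2rb were not analysed here. These matches describe letters only.

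Each mouse gave 17509328 to 24325513 reads assigned to genes, recovered from the deposited values, and no difference in depth between the groups was found (exact permutation test, two-sided, p = 0.496; the smallest p possible was 0.00216). Across all genes with values, 60 were higher and 47 lower after DT at an adjusted p under 0.1 (limma on log2 of the normalized count plus 1). PBS 3 and PBS 5 had the highest sums of the 10 phagocyte genes, at 548 and 485 normalized counts. Whether they stood apart from the other control mice over all genes was not tested. Without them, 922 genes were higher and 1045 lower, so values without both mice are given below for members that they moved. The epithelial list of 15 keratin and adhesion genes summed to between 2816760 and 3136510 normalized counts in every mouse, whereas the 10 phagocyte genes summed to between 278 and 548, so they are a small part of this tissue's mRNA.

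Per kilobase of exon, Cd68 stood highest, at 124 ± 20.5 normalized counts (SD over 11 mice), and its lowest mouse, at 97.2, lay above the highest mouse of every other member. C1qa (37.6 ± 9.05), Lyz2 (32.8 ± 14.6) and C1qb (31.3 ± 14.4) followed and did not differ beyond their spread, then C1qc at 13.9 ± 6.19. The surface receptors were lower on this scale, with Adgre1 at 4.12 ± 2.39, Csf2rb at 3.90 ± 1.82, Cx3cr1 at 3.35 ± 1.94 and Ccr2 at 2.88 ± 1.30, again within each other's spread. They are also the longer genes, with 3238 to 7277 exon bases. Before division by length, Csf2rb averaged 28.4 and C1qc 26.8, while Adgre1, Cx3cr1 and Ccr2 were still lower. Per kilobase, Mrc1 was the lowest at 0.333 ± 0.243. Its 23 reads over the 11 mice, 0 to 6 in each, give this macrophage gene little weight in what follows. Several other genes of resident macrophages (Cd163, Lyve1, Trem2, Timd4, Vsig4, Marco and Pf4) had no value. The label therefore rests on C1q, Cd68, F4/80 and the receptor genes, and not on the mannose receptor. Since Langerhans cells also carry F4/80 and neutrophils also carry Csf2rb, these genes do not assign the RNA to a particular cell type.

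None of the 10 members passed the threshold for a difference between DT and PBS (limma), against a background of 0.558% of all genes in either direction and 0.245% lower after DT. Only Csf2rb reached an unadjusted p under 0.05, which is 10.0% of the members beside 11.5% of all genes, or 6.19% counting lower genes alone. The fold changes were negative for 7 members and positive for 3, with a median log2 fold change of -0.36, beside -0.01 and 52.7% negative over all genes. No member had groups without overlap, which 1.65% of all genes had. The adjusted p was 0.196 for Csf2rb and between 0.493 and 0.931 for the other 9.

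**Figure D1:**
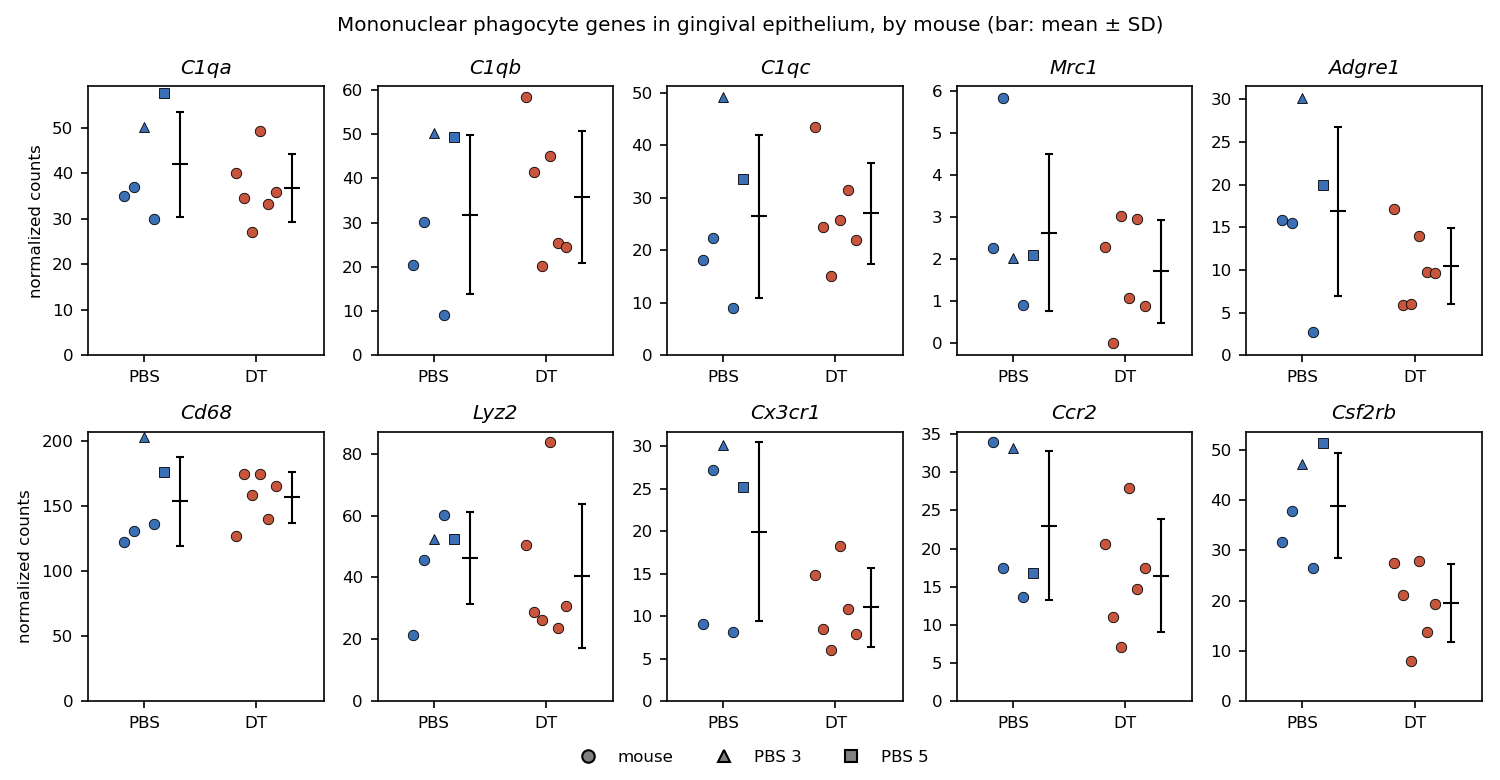
Normalized counts (vertical axis) of each of the 10 genes in every PBS mouse (blue, n = 5) and DT mouse (red, n = 6), with the mean and SD as bars. PBS 3 (triangle) and PBS 5 (square) sit high in most panels, the groups overlap in all, and only in Csf2rb do 4 of 6 DT mice lie below every PBS mouse.

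The C1q genes differed little between the groups and widely among mice. C1qa was 35.1, 36.9, 50.3, 30.1 and 57.7 normalized counts in PBS mice 1 to 5, and 27.2 (lowest), 35.3 (median) and 49.4 (highest) in DT mice. PBS 3 and PBS 5 were the highest of all 11 mice and the remaining controls lay inside the DT range. The means were 42.0 ± 11.5 and 36.8 ± 7.47 (log2 fold change -0.17, SE 0.20, 95% interval -0.59 to 0.25, adjusted p = 0.799, limma), and without PBS 3 and PBS 5 the change was 0.09.

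C1qb was 20.4, 30.1, 50.3, 9.11 and 49.3 in the PBS mice, and ranged from 20.1 to 58.5 with a median of 33.5 in DT mice. DT 1 was the highest of all mice and PBS 4 the lowest by far. The log2 fold change was 0.30 (SE 0.39, 95% interval -0.52 to 1.11, adjusted p = 0.823), became -0.07 without PBS 4, and became 0.87 (unadjusted p = 0.0309, adjusted p = 0.179) without PBS 3 and PBS 5. C1qc gave the same order at both ends of the controls, with 18.1, 22.4, 49.3, 9.11 and 33.6 in PBS mice and 15.1 to 43.6, median 25.1, in DT mice. Its log2 fold change was 0.16 (SE 0.35, 95% interval -0.59 to 0.90, adjusted p = 0.905), -0.15 without PBS 4 and 0.69 (adjusted p = 0.227) without PBS 3 and PBS 5. For both chains the direction was thus set by which control mice were counted.

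Among the surface and lysosomal markers, Cd68 was the most even. It was 122, 131, 203, 137 and 176 in the PBS mice and 127 to 175, median 162, in DT mice, so that every DT mouse lay within the control range. Its log2 fold change of 0.05 (SE 0.13, adjusted p = 0.931) had a 95% interval of -0.24 to 0.33, the narrowest of the 10 members; it was -0.03 without PBS 1 and 0.26 (adjusted p = 0.196) without PBS 3 and PBS 5. Adgre1 was 15.8, 15.5, 30.2, 2.73 and 19.9 in PBS mice and 5.91 to 17.2, median 9.72, in DT mice. Its highest and lowest mice were both controls, and 5 of 6 DT mice lay below the PBS mean. Its log2 fold change was -0.45 (SE 0.45, 95% interval -1.41 to 0.50, adjusted p = 0.754), -0.95 (unadjusted p = 0.0102) without PBS 4, -0.18 without PBS 3 and 0.08 without PBS 3 and PBS 5.

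Lyz2 was 21.5, 45.7, 52.3, 60.1 and 52.5 in PBS mice and 23.5 to 83.7, median 29.7, in DT mice. In 5 of 6 DT mice it lay below the PBS median, while DT 4 was the highest of all 11. For Lyz2 the log2 fold change was -0.26 (SE 0.32, adjusted p = 0.806), and it ran from -0.51 (without PBS 1) to -0.14 (without DT 5) with 1 mouse left out, and was -0.10 without PBS 3 and PBS 5. Of the 50-base stretches of Lyz2 exons, 15.4% also occur in Lyz1, its near copy in the Paneth cells of the gut, which had no value here, so Lyz2 counts depend on how shared reads were assigned. Mrc1 was 0.911 to 5.83 in PBS mice, highest in PBS 2, and 0 to 3.02 in DT mice, and its log2 fold change of -0.45 (SE 0.44, adjusted p = 0.750) was about the size of its error and ran from -0.65 (without PBS 4) to -0.19 (without PBS 2).

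The 3 receptor genes had the most negative fold changes of the list. Ccr2 was 33.9, 17.5, 33.2, 13.7 and 16.8 normalized counts in PBS mice and 7.05 to 27.9, median 16.1, in DT mice. PBS 1 and PBS 3 were the highest of all mice, and the other controls lay inside the DT range (log2 fold change -0.48, SE 0.33, 95% interval -1.18 to 0.22, adjusted p = 0.614). With 1 mouse left out, the change for Ccr2 ran from -0.65 (without DT 4) to -0.28 (without DT 3). Cx3cr1 was 9.05, 27.2, 30.2, 8.20 and 25.2 in PBS mice, in a high set of 3 and a low set of 2, and 6.04 to 18.3, median 9.62, in DT mice. All 6 DT mice lay below the PBS mean of 20.0, and the low controls lay among them. The log2 fold change was -0.70 (SE 0.37, 95% interval -1.49 to 0.09, unadjusted p = 0.0799, adjusted p = 0.493). With 1 mouse left out it ran from -0.95 (without PBS 4, unadjusted p = 0.0194, adjusted p = 0.314) to -0.51 (without PBS 3), and it was -0.28 (unadjusted p = 0.502) without PBS 3 and PBS 5. Cx3cr1 overlaps the gene Gm33858 on the opposite strand, and the sources used here do not state whether counting used strand.

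Csf2rb, at 78325752 to 78353847 on the plus strand of chromosome 15, had the largest difference of the members. It was 31.7, 37.9, 47.3, 26.4 and 51.4 in PBS mice, and 27.5, 21.1, 8.06, 27.9, 13.7 and 19.3 in DT mice. The groups met only where PBS 4 lay below DT 1 and DT 4, and the other 4 controls lay above every DT mouse. The means were 38.9 ± 10.4 and 19.6 ± 7.77, with counting errors alone of 6.30 and 4.43 (SD), so the spread among mice was wider than counting gives. The log2 fold change was -1.02 (SE 0.29, 95% interval -1.63 to -0.40), or 0.493-fold (0.322 to 0.756), with an unadjusted p of 0.00292 and an adjusted p of 0.196 (limma), which misses the threshold. Its sign was negative under every alternative tried, from -1.15 to -0.74, with adjusted p from 0.137 to 0.606. Without PBS 3 and PBS 5 it was -0.77 (adjusted p = 0.187).

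Csf2rb has a near copy, Csf2rb2, on the minus strand of the same chromosome at 78282507 to 78305721, whose product is a beta chain specific to IL-3 in mice. Of the 50-base stretches of Csf2rb exons, 12.3% also occur in Csf2rb2, and 18.4% the other way, so some reads could be assigned to either gene and the values are not independent. Csf2rb2 was 29.4, 21.4, 50.3, 22.8 and 48.3 in PBS mice and 11.8 to 27.9, median 21.4, in DT mice. All 6 DT mice lay below the PBS mean of 34.4 and 3 lay below every control. The log2 fold change was -0.72 (SE 0.28, 95% interval -1.31 to -0.12, unadjusted p = 0.0216, adjusted p = 0.331), and -0.32 (unadjusted p = 0.274) without PBS 3 and PBS 5.

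The partners of these receptors were read from 1 list. Of 15 listed ligands and receptor chains, 10 had values, none passed the threshold, 7 had negative fold changes and the median log2 fold change was -0.12. Csf1r, the receptor for CSF1 and IL-34 on which macrophages and Langerhans cells depend, was 110 ± 30.0 normalized counts in PBS and 79.6 ± 20.1 in DT mice (log2 fold change -0.46, adjusted p = 0.397). Together with Csf2rb2 it was lower at an unadjusted p under 0.05 (limma), as were 6.19% of all genes. Further partners were named for their roles, with their values known. Csf2ra, the chain that gives the GM-CSF receptor its specificity, had a log2 fold change of -0.10 (SE 0.19, adjusted p = 0.892), with 107 ± 33.1 and 97.5 ± 17.4 normalized counts. Its 95% interval, -0.50 to 0.31, and that of Csf2rb, -1.63 to -0.40, share a short stretch, and the difference between both chains was not tested. The ligands with enough reads had small changes, with -0.15 for Csf1, -0.08 for Il34 and 0.02 for Cx3cl1, the ligand of Cx3cr1 (adjusted p from 0.780 to 0.961). Ccl2, the main ligand of Ccr2, was at 5.63 ± 5.46 and 1.05 ± 1.26 (log2 fold change -1.30, adjusted p = 0.447), and Csf2, which encodes GM-CSF, was near 0 in both groups (0.383 and 1.96).

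**Figure D2:**
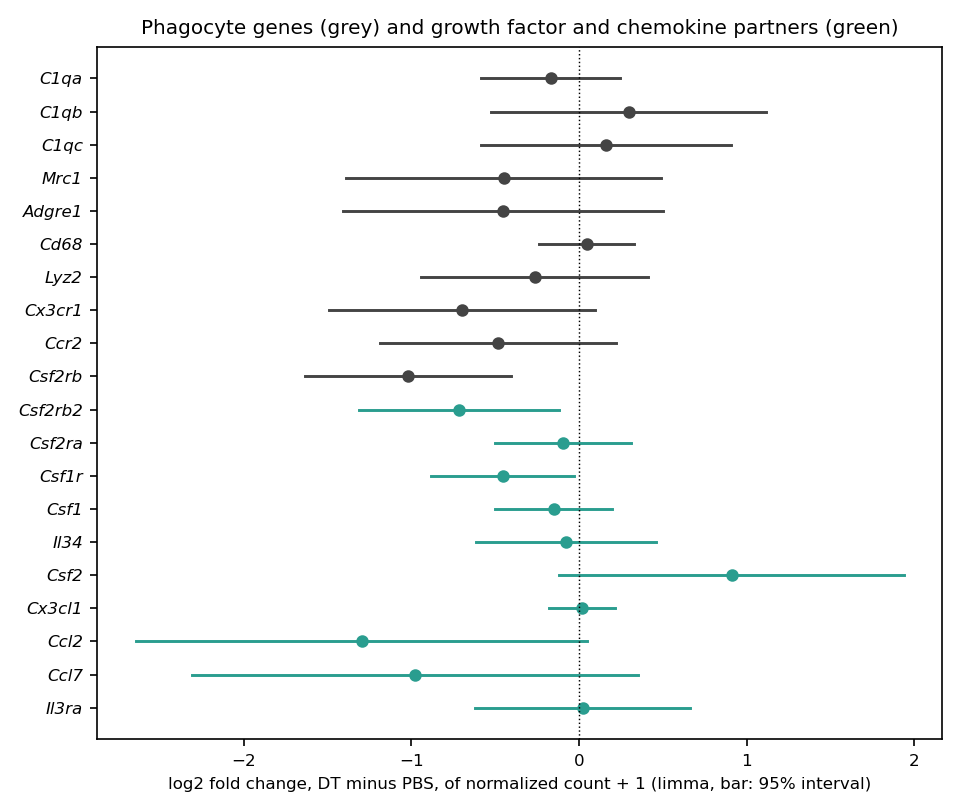
Log2 fold change of DT over PBS (horizontal axis, limma) with its 95% interval for the 10 phagocyte genes (grey) and the 10 ligands and receptor chains with values (green). Csf2rb, at -1.02, lies farthest from 0 among the grey points, and its interval alone among them excludes 0; Csf2rb2 and Csf1r are the green points whose intervals do.

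The values of several members were high or low in the same mice. Of 45 pairs, 42 had a positive Pearson r over the 11 mice on the log2 scale, with a median r of 0.44, and 9 pairs passed an adjusted p of 0.05 (permutation test with 100000 resamples, two-sided, Benjamini-Hochberg over 45 pairs). Of all pairs among the 19170 genes with values, 49.9% had a positive r, the median was 0.0 and 1.2% had an r of at least 0.74, the lowest among the 9 pairs, against 20.0% of the member pairs. By Spearman rho, 8 of these 9 passed as well. All 9 joined the C1q genes, Adgre1, Cx3cr1 and Csf2rb, while Cd68, Lyz2, Mrc1 and Ccr2 were in none. The number of pairs that passed depended on which mice were counted. Without PBS 3 and PBS 5, 35 pairs were still positive and none passed (exact permutation test over 9 mice), and 1 passed when PBS 3, PBS 5 or DT 3 alone was left out. PBS 3 and PBS 5 had the highest sums of these same genes, and 9 mice give less power than 11. These counts therefore cannot tell whether the co-variation rests on a few mice.

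C1qb and C1qc had the highest r, 0.90 (permutation p = 0.00019, adjusted p = 0.00855), and a rho of 0.94 (permutation p = 9e-05, adjusted p = 0.00405). It was 0.77 without the 2 mice farthest from the median of C1qb, and 0.90 without PBS 3 and PBS 5 (exact permutation test, adjusted p = 0.0841). Their exons share no stretch of 50 bases. C1qa followed C1qb at r = 0.75 (permutation, adjusted p = 0.0436) and C1qc at r = 0.70 (permutation, adjusted p = 0.0657). Whether these values of r differ from that of the first pair was not tested.

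Outside C1q, Cx3cr1 followed C1qa (r = 0.82, rho = 0.81, permutation, adjusted p = 0.0273 for r), Csf2rb (r = 0.80, rho = 0.83, adjusted p = 0.0273) and Adgre1 (r = 0.78, rho = 0.80, adjusted p = 0.0343). Adgre1 followed C1qc (r = 0.82, adjusted p = 0.0273, permutation), C1qa (0.77, adjusted p = 0.0351) and C1qb (0.74, adjusted p = 0.0436), the last of which did not pass by rho (permutation, adjusted p = 0.0589). Without the 2 mice farthest from the median of the C1q gene, r with Adgre1 fell to 0.50 for C1qc and 0.49 for C1qb. Leaving out the most extreme mice can lower r in itself. Csf2rb followed C1qa at r = 0.77 (rho = 0.82, permutation, adjusted p = 0.0351). At the other end, Mrc1 and Cd68 had the lowest r, -0.42.

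After the group means were removed, 16 pairs passed (permutation within groups over all 86400 rearrangements). How many pairs among all genes would pass after this step was not counted. Most of the added pairs held Csf2rb or Cx3cr1. Csf2rb and C1qb had r = 0.41 over all mice (permutation, adjusted p = 0.371) and 0.81 within the groups (permutation, adjusted p = 0.00495), and for C1qc the values were 0.39 and 0.70 (adjusted p = 0.0286 within groups). Within each group, mice with more C1qb tended to have more Csf2rb, and the DT mice lay lower in Csf2rb at like levels of C1qb.

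**Figure D3:**
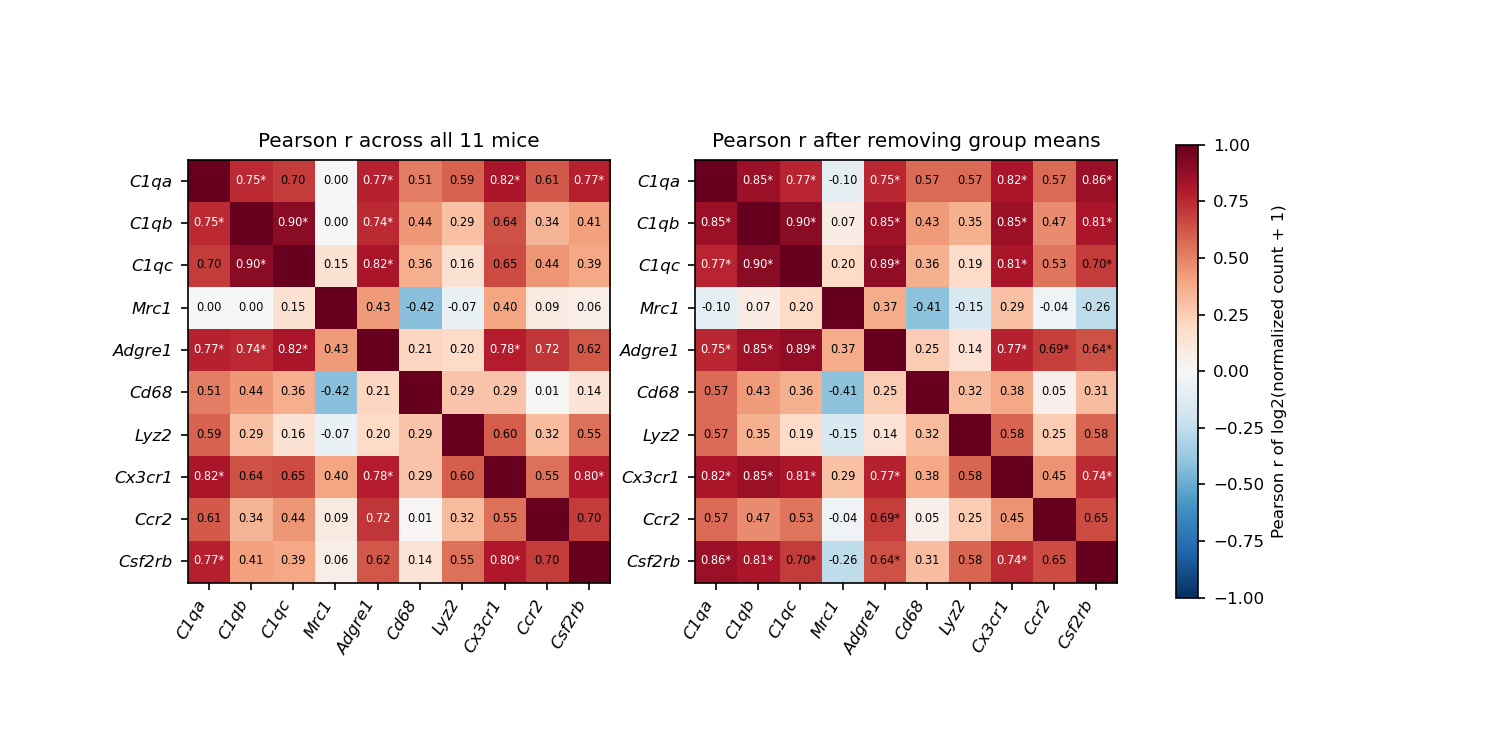
Pearson r (colour and printed value) of log2 normalized counts for each pair of the 10 genes, over all 11 mice (left) and after removing the group means (right), with an asterisk where the adjusted p was under 0.05. The C1q genes, Adgre1 and Cx3cr1 form a red group in both panels, and the row of Csf2rb against C1qb and C1qc darkens from 0.41 and 0.39 on the left to 0.81 and 0.70 on the right.

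To describe this offset, the log2 value of Csf2rb was set against the mean log2 value of the 3 C1q genes in the same mouse. The measure was chosen after the values were seen, with the member that differed most, so it has no test. How often ratios of other genes separate the groups was not counted. It was 0.42, 0.37, -0.08, 0.90 and 0.17 in PBS mice 1 to 5, and -0.74, -0.61, -1.23, -0.45, -1.07 and -0.46 in DT mice 1 to 6. All 6 DT mice lay below all 5 PBS mice, including PBS 4, whose Csf2rb alone lay among the DT values and whose C1qb was the lowest measured. The means were 0.35 ± 0.36 and -0.76 ± 0.32, a difference of -1.11 on the log2 scale. It was -1.22 to -0.98 with any 1 mouse left out, and -1.32 without PBS 3 and PBS 5, which had the lowest values of the controls.

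**Figure D4:**
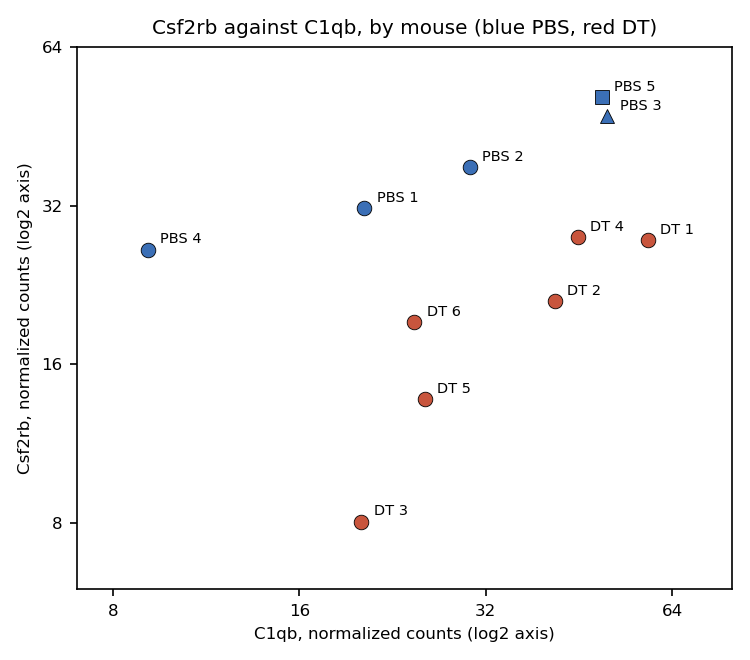
Csf2rb against C1qb in normalized counts (both axes on a log2 scale), 1 point per mouse, blue for PBS and red for DT. Both values are high or low together in each group, and the PBS points lie above the DT points at the same C1qb: PBS 1 has 31.7 of Csf2rb and DT 3 has 8.06 with C1qb of 20.4 and 20.1.

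The mice themselves differed over the list as a whole. PBS 3 held 1 of the 2 highest values of the 11 mice for 8 of the 10 genes and PBS 5 for 4. DT 3 held 1 of the 2 lowest values for 6 genes and PBS 4 for 4. Summed over the 10 genes, PBS 3 had 548 and PBS 5 had 485 normalized counts, DT 4 followed at 468, and DT 3 had the fewest at 278. The 15 genes of the Langerhans cell list (which holds MHC class II genes, Cd74 and Ptprc) were highest in PBS 3, PBS 5 and DT 4 as well, at 7538, 6342 and 5308, and lowest in DT 3, at 3695. The part of Langerhans cells in the co-variation of the phagocyte genes was not tested.

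The genes most like the mean pattern of the C1q trio over 11 mice, among 13460 with a mean of at least 10, were Yeats4 (r = 0.96), Akr1b3 (0.95), Banf1 (0.94), Bax (0.94), Cyba (0.94), Atp1b3 (0.94), Il34 (0.93), Sf3b5 (0.93), Sprr2h (0.93) and Litaf (0.92). These values are a description, and what the genes have in common was not tested. They ranged from Atp1b3, a sodium pump subunit at 10044 normalized counts, to Cyba, a subunit of the phagocyte oxidase at 19.6, and included Il34, a ligand of the receptor that Csf1r encodes. The mean pattern of the other members was most like Lcp1 (r = 0.89), Pmf1 (0.89), Mpeg1 (0.88), Gpx8 (0.88) and Vim (0.88). Lcp1 (an actin-bundling protein of leukocytes) and Mpeg1 (a pore-forming protein of macrophages) are themselves leukocyte genes, with log2 fold changes of -0.59 (adjusted p = 0.408) and -0.19 (adjusted p = 0.807).

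Other genes of the same cells gave like values. Of 25 further macrophage genes, 18 had values and none passed the threshold, 12 fold changes were negative, and the median log2 fold change was -0.13. Csf1r had the smallest p and Laptm5, a lysosomal protein of leukocytes, the next (122.9 ± 54.9 and 80.3 ± 26.1, log2 fold change -0.56, adjusted p = 0.452). The summed level of this list was 16083 to 21912, of which the transcription factor Maf, which keratinocytes also express, gave 8783 on average in PBS mice. Of 15 monocyte genes, 13 had values, none passed and the median was -0.17. Chil3, made by monocytes and some macrophages, ranged from 0 to 574 in PBS mice and from 0.875 to 13.96 in DT mice (adjusted p = 0.420). The list summed to 820 in PBS 3, against 204 to 354 in the other controls and 161 to 247 in DT mice. Most of the sum in PBS 3 was Chil3 alone, at 574, so it does not describe the list as a whole.

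The complement genes around C1q were split in direction. Of 15, 13 had values, none passed, 7 fold changes were negative and the median log2 fold change was -0.07. Cd46, a membrane regulator, was at 16.2 ± 4.63 and 10.3 ± 2.04 (log2 fold change -0.58, adjusted p = 0.368).

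Lists for the other cells of the tissue were measured beside these genes. No gene of the Langerhans, dendritic, neutrophil, T cell, B cell, mast cell, fibroblast, endothelial, epithelial, muscle, red cell or Schwann cell and melanocyte lists passed the threshold. The Langerhans list had all 15 genes with values and a median log2 fold change of -0.34. In it 5 genes were lower at an unadjusted p under 0.05 (limma), beside 6.19% of all genes. Among them were Runx3 (-0.73, adjusted p = 0.250) and Ptprc, the pan-leukocyte gene CD45 (-0.62, adjusted p = 0.307). The Langerhans list summed to 4177 to 7538 in PBS and 3695 to 5308 in DT mice. The dendritic list had 10 of 12 genes with values and a median of -0.61, led by Xcr1 (-1.26, adjusted p = 0.213) and Batf3 (-1.04, adjusted p = 0.322), both at about 2 normalized counts in PBS mice. Of the neutrophil list, whose cells also carry Lyz2 and Csf2rb, 6 of 11 genes had values, none was at an unadjusted p under 0.05, and the defining genes Ly6g, Mpo, Elane, Retnlg and Camp had no value. The neutrophil list summed to 980 to 2348 in PBS and 415 to 2135 in DT mice, lowest in DT 3. Most of this sum was the single gene Ltf, with a mean of 1504 beside 1664 for the list over all mice. The sum therefore does not describe the list as a whole. The immediate early genes, which tissue handling can induce, went the other way: 11 of 15 were higher after DT at the threshold, beside 60 of all 19170 genes. Their median log2 fold change was 1.11, with sums of 30087 to 72795 in PBS and 76477 to 120471 in DT mice. The part of any of these lists in the values of the 10 members was not tested.

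**Figure D5:**
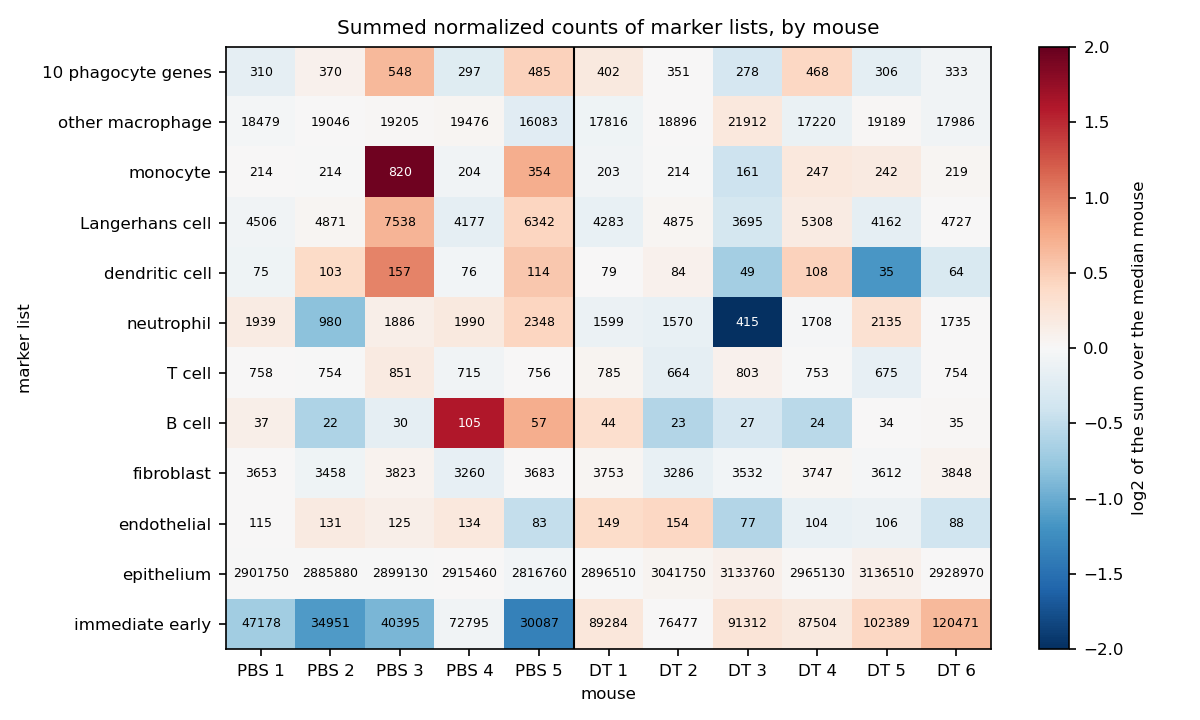
Summed normalized counts (printed) of the 10 phagocyte genes and 11 marker lists in each mouse, with the log2 ratio to the median mouse as colour. PBS 3 and PBS 5 are red for the phagocyte, monocyte, Langerhans and dendritic lists, while the epithelial row is even, from 2816760 to 3136510. Most of the monocyte sum of PBS 3 is the single gene Chil3, at 574.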

How the data were processed

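Per the labels, RNA was extracted with an RNeasy Micro kit and stranded mRNA libraries were made after poly(A) selection. The deposited table holds, for each mouse, the authors' normalized count per gene, recorded here as a score because it is neither a raw count nor a fixed unit such as CPM. Per the submitters' notes, reads were trimmed with cutadapt 2.10, aligned with TopHat2 2.1.1, counted with HTSeq 2.01 and normalized with DESeq2 1.36.0. The methods name GRCm38, the notes GRCm39, so positions were taken from GENCODE M21 (GRCm38) by gene identifier. The methods also mention a 3′ tag guide; if it applied, values per kilobase would understate long genes. Low values, the only ones checked, were all whole multiples of 1 read per mouse within 0.1 read. The value of 1 read in each mouse gave the depth.

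Values were tested as log2(normalized count + 1) with limma 3.58.1 (R 4.3.3, intensity trend, no covariates, 5 PBS against 6 DT mice) and Benjamini-Hochberg adjustment over 19170 genes, threshold 0.1. Exact permutation tests were two-sided. The named genes were the members, the paralogs Lyz1 and Csf2rb2, Cd207, the called genes or else the 2 smallest p of each list, and the genes most alike. Immediate early and several other lists are given by counts only, and some genes the rule names are not reported here. The members and lists were chosen with earlier results of these data known. The labels number the mice but do not say whether they shared litters or cages. Alternatives were other pseudocounts, filters, scaling, weights, blocks and left-out mice. Depth limits precision to the counting errors given, which cover counting only.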

Additional observations from a re-analysis of the deposited data

Results flagged for a closer look

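Lyz2 in PBS 1, at 21.5 normalized counts, lay far below the other 4 control mice, which were between 45.7 and 60.1. On the log2 scale of the normalized count plus 1, its gap to the nearest control was 0.73 of the range of the group, above the critical value of 0.71 (Dixon's test at 95%). On the scale of normalized counts the gap was 0.63 of the range and below that value, while Mrc1 in PBS 2, at 5.83, was above it at 0.73. On the log2 scale, of 20 groups of values checked, 10 genes in each of both treatments, this was the 1 flagged, and chance flags about 1 in 20. Without PBS 1, the log2 fold change of Lyz2 was -0.51.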

How the results depend on the processing

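With 1 mouse left out at a time, 19 to 155 genes were higher and 8 to 104 lower after DT, with the most in both directions without PBS 5, the fewest higher without DT 5 and the fewest lower without PBS 1 or DT 5. The counts were 110 higher and 79 lower with array weights, and 922 and 1045 without PBS 3 and PBS 5; the cause was not tested. None of the 10 members passed under any of the 19 alternatives. Members at an unadjusted p under 0.05 numbered 4 without PBS 3 and PBS 5 (C1qb, C1qc and Cd68 higher, Csf2rb lower), beside 21.6% of all genes in that fit, and 1 to 3 with 1 mouse left out. Correlated pairs were 16 after removing group means, 0 without PBS 3 and PBS 5, and 1 to 11 with 1 mouse left out. Log2 fold changes reversed for C1qa (0.091) and Adgre1 (0.082) without PBS 3 and PBS 5. With 1 mouse left out they ran from -0.073 to 0.51 for C1qb and from -0.15 to 0.43 for C1qc, negative without PBS 4, and from -0.029 to 0.15 for Cd68, negative without PBS 1 (-0.029) or PBS 2 (-0.0040). The offset of Csf2rb from C1q, an alternative added after seeing the data, kept its sign throughout (-1.32 to -0.79). As it was built on the member that differed most in these values, a kept sign adds no support. The p of the depth comparison was 0.206 to 0.833 with 1 mouse left out.

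Mice with the same number in both groups did not deviate together (r from -0.233 to 0.324), so a paired reading has no basis. With a replicate block on the title numbers, which leaves out DT 6, 24 genes were higher and 12 lower, and Csf2rb was at -1.04 (adjusted p = 0.444). With a replicate block on the library numbers, which leaves out DT 5, none was higher or lower at the threshold by limma (1397 genes at an unadjusted p under 0.05), and Csf2rb was at -0.94 (adjusted p = 0.605). Count models, though planned, were left out, since the recovery of reads did not pass a separate check in PBS 3 and DT 3, where 1 read was worth close to 1 normalized count (1.0058 and 1.0073). At 10 to 50 reads per mouse for most members, changes smaller than the intervals given were not detectable.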
